A study of Rattus norvegicus with 3 samples.

Results

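Rab GTPases and the effectors and regulators that carry a Rab name were taken by symbol from the 16516 genes of the authors' deposited table, and 64 genes met the rule. The rule took symbols of the form Rab plus a number, with up to a letter, a digit and a letter more, and symbols that begin with Rab11fip, Rabep, Rabgef or Rab3gap. By role these were 52 GTPases and 12 effectors or regulators. Rab3ip met the rule by its letters and encodes Rabin8, an exchange factor for Rab8, so it was counted with the regulators. Rab5a, Rab17, Rab9b, Rab1b, Rab39b, Rab41, Rab3b and Rab3c were not among the 16516 genes under these symbols, so they could not be analysed.

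Wistar Hannover rats gave the enamel organ tissue, and RNA was sequenced for maturation ameloblasts, secretory ameloblasts and cervical loop cells. The labels name no genotype, treatment or age, and they state that tissue was dissected from 5 rats. The cervical loop is the growing end of the rat incisor, where the progenitors of ameloblasts lie. Secretory ameloblasts lay down the enamel matrix, and maturation ameloblasts follow them along the same tooth while the enamel hardens. Each stage is held as 1 mean per gene, so no standard deviation or number of replicates can be given with any value here. Replicate error enters only through the p-values of the authors' deposited table, adjusted over all genes as a false discovery rate (FDR) and called below 0.05. Nothing in the sources used here says which libraries came from which rat in the fit, so the p-values cover whatever spread the authors' model held. The unit of the authors' means is not stated, so levels are compared between stages and never between genes. Sums over marker genes, given below, are led by the genes of largest mean. A fold is a ratio of the authors' means, the scale of their test is not given in the sources used here, and the depth behind each mean is unknown.

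Rab proteins are small GTPases that mark membranes by compartment. Bound to GTP they recruit effectors such as tethers, motor adaptors and sorting proteins. Exchange factors load them with GTP, GTPase-activating proteins switch them off, and prenyl groups anchor them in the membrane. In ameloblasts, secretory cells export large amounts of matrix protein, and maturation cells take up protein fragments by endocytosis and carry a border that cycles between ruffled and smooth forms.

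The stage labels were checked against defining markers. All 4 cervical loop markers measured, Mki67, Sox2, Lgr5 and Sfrp5, fell in secretory over cervical loop cells in the authors' deposited table. All 4 enamel matrix markers, Amelx, Ambn, Enam and Mmp20, rose in secretory over cervical loop cells and fell in maturation over secretory cells. All 5 maturation markers, Klk4, Amtn, Odam, Slc24a4 and Wdr72, rose in maturation over secretory cells. Markers of other cells were also present at every stage. Summed over 14 myeloid markers the authors' means were 301 in the cervical loop, 253 in the secretory stage and 802 in the maturation stage, and 12 of 14 rose in maturation over secretory cells in the authors' deposited table. Over 10 mesenchyme markers the sums were 10230, 10828 and 14715 in the same order of stages, with 4 of 10 higher in maturation over secretory cells. Over 6 endothelial markers they were 114, 147 and 221, with 2 of 6 higher in that pair. Over 5 muscle markers they were 2.82, 6.49 and 114, and 0 of 5 passed in any pair. Over 6 nerve markers they were 52.2, 59.8 and 36.1, and 2 rose and 1 fell in maturation over secretory cells. The fall of the nerve sum followed Tubb3, with means of 38.3, 38.9 and 3.19, while Snap25 and S100b rose. Over 2 erythroid markers the sums were 378, 391 and 518, with 0 called. No marker of these lists was at 0, and 1 muscle marker lay at or below a mean of 0.1 in the cervical loop. The part these cells take in the Rab values was not tested. In such bulk tissue, fewer cells of a type and less RNA per cell cannot be told apart.

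Calls among the Rab genes were upward more often than downward in both pairs against the cervical loop, and evenly split in maturation over secretory cells. In secretory over cervical loop cells 34 of 64 members (53.1%) were called in the authors' deposited table, against a background of 41.8% of all genes. Of these, 23 rose, against 16.5% of all genes, and 11 fell, against 25.2% of all genes. The members' 23 and 11 were 35.9% and 17.2% of the list. In maturation over secretory cells 30 members (46.9%) were called, against 42.9% of all genes, and they split into 15 that rose, beside a background of 21.8%, and 15 that fell, beside 21.1%. In maturation over cervical loop cells 36 members (56.3%) were called, against 57.8% of all genes, and 25 rose, beside 24.1% of all genes, while 11 fell, beside 33.7% of all genes. In this last pair 10 of 14 myeloid, 5 of 6 endothelial and 4 of 10 mesenchyme markers also rose, and their part in the calls was not tested. The median log2 ratio of the members was 0.14, -0.00 and 0.23 in these pairs in the order given, and that of all genes was -0.14, 0.00 and -0.12. Many of the members' rises against the cervical loop were below 1.5-fold. The 52 GTPases alone gave 20 that rose and 9 that fell in secretory over cervical loop cells. In all, 14 members were called in no pair, 12 in 1 pair, 26 in 2 pairs and 12 in all 3. These were 21.9%, 18.8%, 40.6% and 18.8% of the list, beside 27.9%, 15.1%, 43.5% and 13.5% of all genes. The 3 pairs share their stages, so their counts are not independent of one another.

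**Figure D1:**
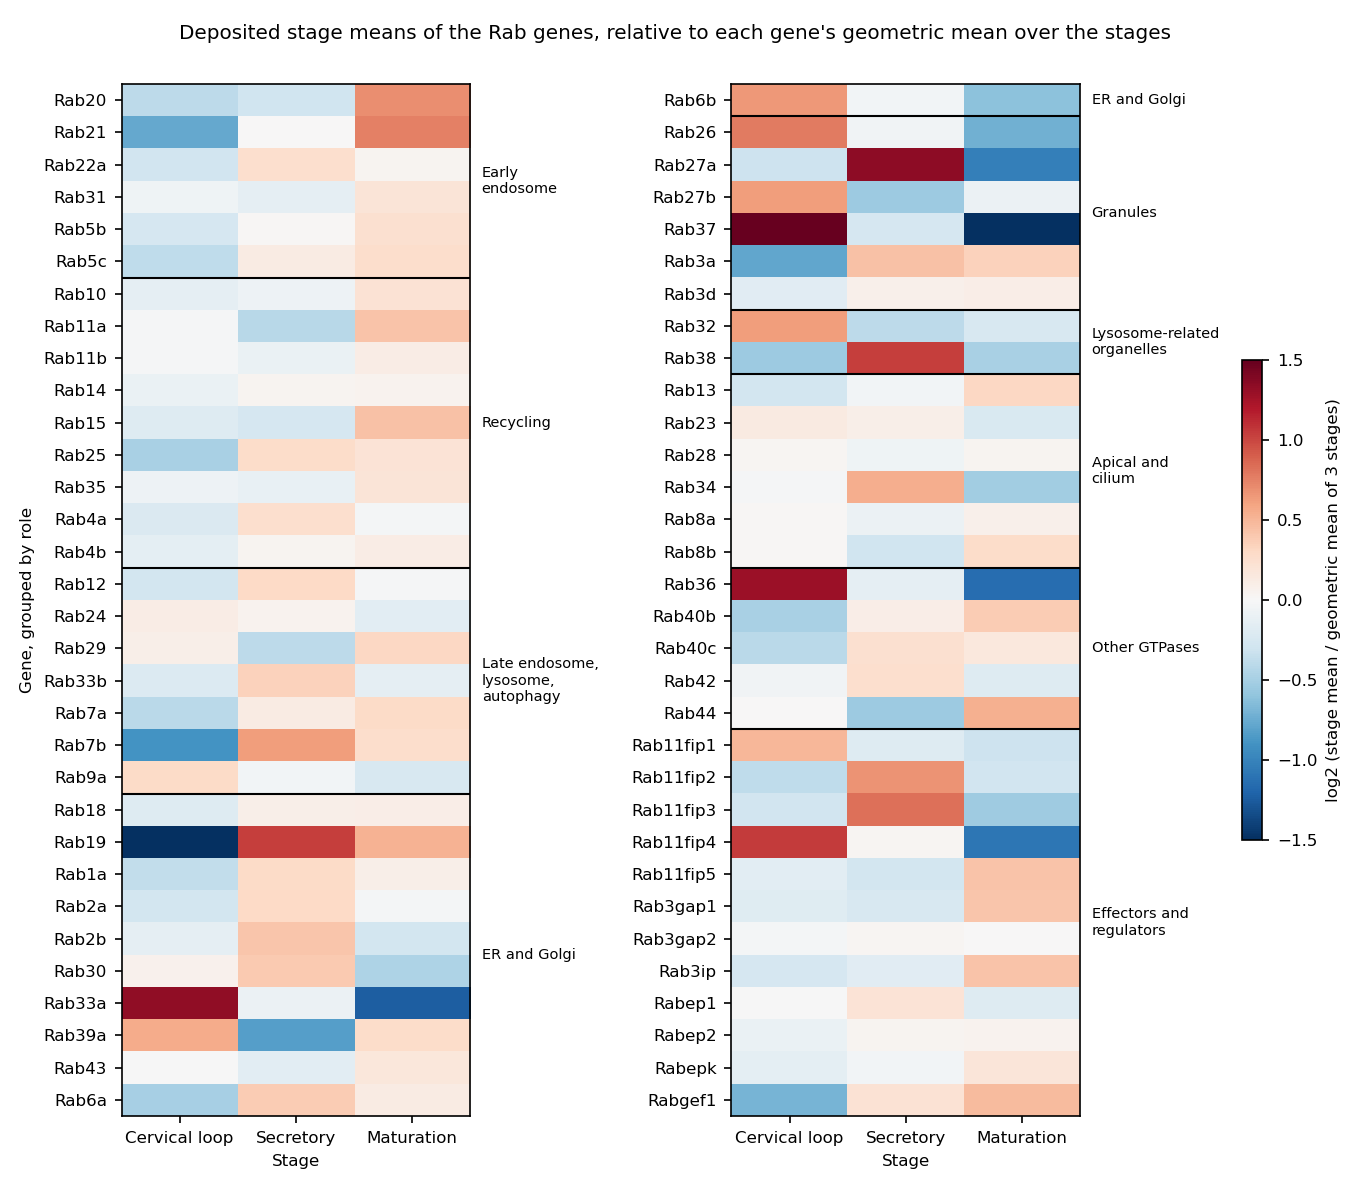
Log2 of the authors' mean of each member in the cervical loop, secretory and maturation stages, relative to that gene's geometric mean over the 3 stages, with members grouped by role. Red is above and blue below the gene's own average, colour saturates at 1.5 either way, and the granule gene Rab27a is red in the secretory column.

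Each member was also given a pattern when both comparisons of a stage with the others passed in the same direction. The cervical loop was low for 14 members, 21.9% of the list beside 9.37% of all genes, and high for 7, beside 18.6% of all genes. The secretory stage was high for 9 members, 14.1% of the list beside 7.99% of all genes, and low for 2, beside 6.2% of all genes. The maturation stage was high for 12 members, beside 14.6% of all genes, and low for 6, beside 13.7% of all genes. A gene can hold more than 1 pattern, so these counts overlap. Rab21, Rab5b, Rabgef1 and Rab7a rose at both steps, beside 2.86% of all genes. Rab11fip4, Rab6b and Rab26 fell at both, beside 4.11% of all genes. In maturation over secretory cells, the pair in which the maturation-high members rose, 12 of 14 myeloid, 4 of 10 mesenchyme and 2 of 6 endothelial markers rose as well, and their part in these calls was not tested.

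GTPases of regulated exocytosis moved in both directions, with Rab27a high in the secretory stage. Rab27a, which docks secretory granules and melanosomes at the plasma membrane, had authors' means of 52.2 in the cervical loop, 164 in the secretory stage and 31.8 in the maturation stage. It was 3.14-fold higher in secretory over cervical loop cells (FDR = 0.00141) and 5.16-fold lower in maturation over secretory cells (FDR = 0.000378) in the authors' deposited table. It was also 1.64-fold lower in maturation over cervical loop cells (FDR = 0.017) in the authors' deposited table. The secretory mean stood above both others, and the maturation mean was the lowest. Rab27b, its close relative, had authors' means of 2.67, 1.18 and 1.62 over the same stages. It was 2.26-fold lower in secretory over cervical loop cells (FDR = 0.0243) in the authors' deposited table, opposite in direction to Rab27a. Its maturation mean did not pass against either other stage (FDR = 0.198 against secretory and 0.0938 against cervical loop cells in the authors' deposited table).

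Rab26 and Rab37, both linked to secretory granules, were high in the cervical loop. Rab26 had authors' means of 6.48, 3.62 and 2.28 in the cervical loop, secretory and maturation stages, so that each later stage lay lower. It was 1.79-fold lower in secretory over cervical loop cells (FDR = 0.00334) and 1.59-fold lower in maturation over secretory cells (FDR = 0.00604) in the authors' deposited table. Rab37 had authors' means of 1.17, 0.173 and 0.0425, the last below the 0.1 under which no fold is given here. It was 6.79-fold lower in secretory over cervical loop cells (FDR = 0.0258) in the authors' deposited table, and its maturation mean was also lower than that of the cervical loop (FDR = 0.00291). Rab3a, best known from synaptic vesicles, went the other way. Its authors' means were 1.59, 3.71 and 3.49, and it was 2.33-fold higher in secretory over cervical loop cells (FDR = 0.0134) in the authors' deposited table. It was 2.2-fold higher in maturation over cervical loop cells (FDR = 0.00957), while maturation and secretory cells did not differ past the threshold (FDR = 0.805) in the authors' deposited table. Rab3d, found on granules of exocrine cells, had authors' means of 7.78, 9.25 and 9.37 and passed in no pair. Of the 6 measured genes of this role, 2 rose and 3 fell in secretory over cervical loop cells, where 16.5% of all genes rose and 25.2% fell. None rose and 2 fell in maturation over secretory cells, where the shares of all genes were 21.8% and 21.1%.

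Rab38 and Rab32 are close relatives that carry cargo to lysosome-related organelles such as melanosomes, and they moved in opposite directions at the first step. Rab38 had authors' means of 18.5, 55.7 and 19.2 in the cervical loop, secretory and maturation stages. It was 3.01-fold higher in secretory over cervical loop cells (FDR = 0.00182) and 2.89-fold lower in maturation over secretory cells (FDR = 0.00198) in the authors' deposited table. Its maturation and cervical loop means did not differ past the threshold (FDR = 0.401 in the authors' deposited table). Rab32 had authors' means of 28.3, 13.9 and 15.4. It was 2.03-fold lower in secretory over cervical loop cells (FDR = 0.00749) and 1.83-fold lower in maturation over cervical loop cells (FDR = 0.00697) in the authors' deposited table.

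**Figure D2:**
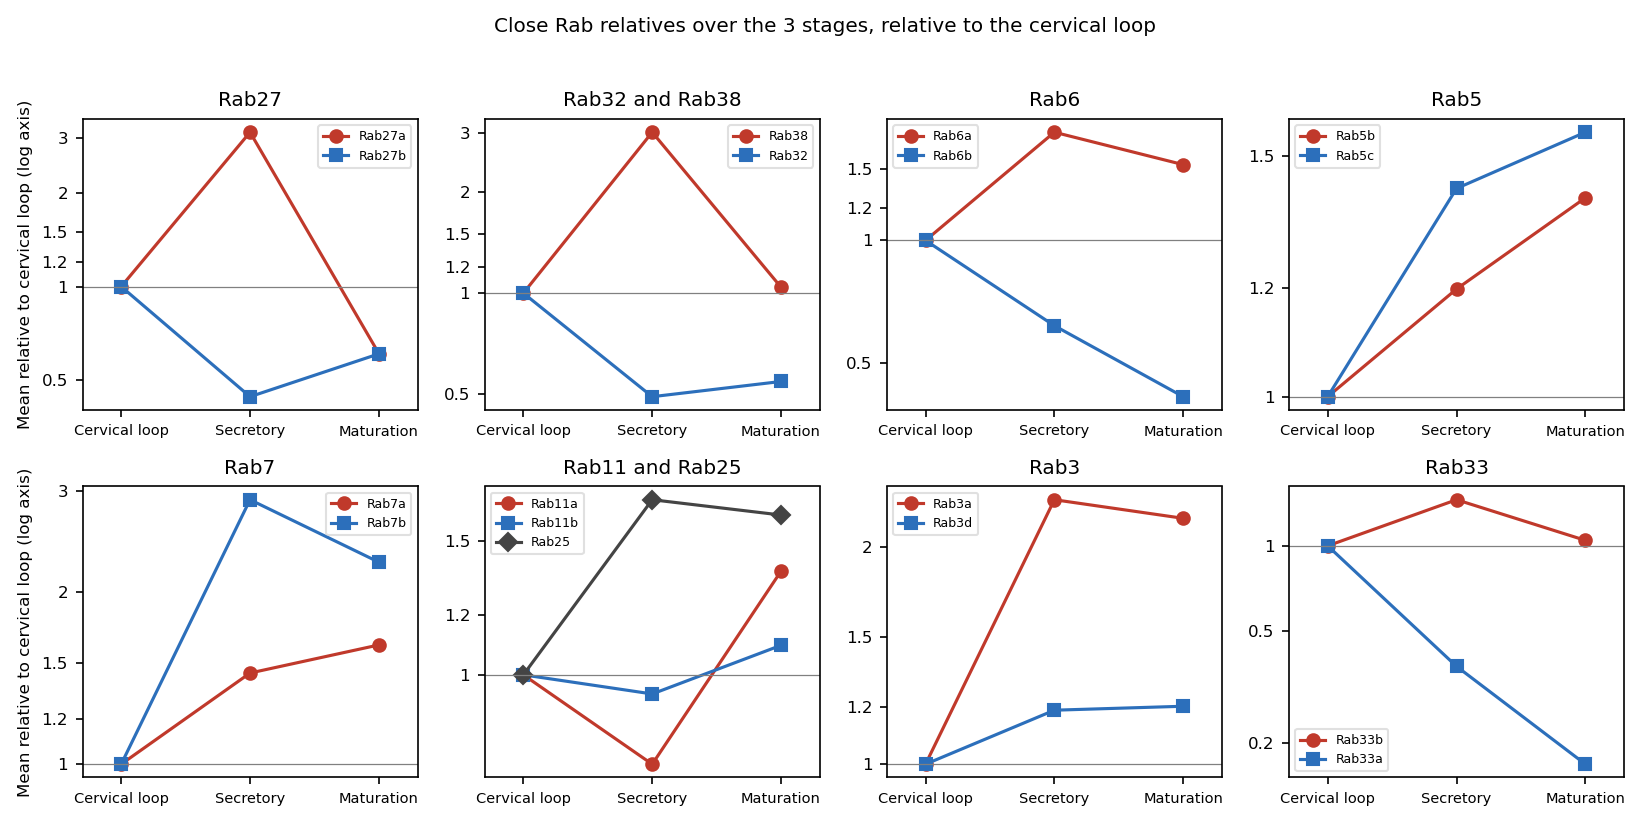
Authors' means of close Rab relatives in the 3 stages, each divided by the gene's own cervical loop mean and drawn on a log axis. In secretory over cervical loop cells Rab27a, Rab38 and Rab6a lie above 1 while Rab27b, Rab32 and Rab6b lie below it, and both Rab5 genes lie above 1.

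Promoters were looked up for the members with the secretory-high pattern. The pattern itself requires a rise and then a fall, so their shared course is not a separate result. The 9 were Rab27a, Rab38, Rab34, Rab22a, Rab11fip2, Rab11fip3, Rab2a, Rab2b and Rab33b. RefSeq promoter sequences of the rat build GRCr8 matched 50 of the 64 members by symbol, and 4 of these 9. The authors' build is rn6, so the coordinates below are those of RefSeq and not of the deposited files. The 250 bases before the start of 3 of the 4 are printed, 5′ to 3′ on the gene's own strand, for the genes that fell over 2-fold in maturation over secretory cells. Capitals mark, on either strand, the GC box GGGCGG, the CCAAT box, the E-box written CACGTG and the M-box core written CATGTG, so that CCGCCC is a GC box on the other strand. None of these motifs overlap in the printed windows.
Rab27a, chr8:82663123-82663372, plus strand: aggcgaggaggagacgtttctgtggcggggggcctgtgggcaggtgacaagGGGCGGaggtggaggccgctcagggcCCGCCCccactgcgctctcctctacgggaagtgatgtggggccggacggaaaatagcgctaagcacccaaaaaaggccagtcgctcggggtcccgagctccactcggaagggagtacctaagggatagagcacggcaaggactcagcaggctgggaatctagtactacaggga
Rab34, chr10:63581292-63581541, plus strand: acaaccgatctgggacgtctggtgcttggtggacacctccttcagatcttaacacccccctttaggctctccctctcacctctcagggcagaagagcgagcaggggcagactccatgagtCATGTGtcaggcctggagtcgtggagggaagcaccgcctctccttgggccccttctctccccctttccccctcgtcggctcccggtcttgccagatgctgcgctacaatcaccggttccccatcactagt
Rab11fip3, chr10:15591174-15591423, minus strand: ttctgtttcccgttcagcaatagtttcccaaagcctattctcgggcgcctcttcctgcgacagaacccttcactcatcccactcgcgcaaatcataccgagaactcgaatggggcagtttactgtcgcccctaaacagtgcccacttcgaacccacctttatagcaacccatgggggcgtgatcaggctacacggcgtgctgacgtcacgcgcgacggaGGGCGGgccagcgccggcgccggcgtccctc

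Rab27a holds 2 GC boxes and Rab11fip3 holds 1 in these windows, and Rab34 holds a single CATGTG. Over the 50 member promoters of this length, 76% held a GC box, 32% a CCAAT, 4% a CACGTG and 8% a CATGTG. Over the 11020 matched promoters of all genes in the authors' deposited table the shares were 56.5%, 34.9%, 7.69% and 7.43% in the same order. These letters describe the windows only.

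Rab34, which positions lysosomes and takes part in building cilia, had authors' means of 42.2, 62.5 and 29.8 in the cervical loop, secretory and maturation stages. It was 1.48-fold higher in secretory over cervical loop cells (FDR = 0.00181), then 2.1-fold lower in maturation over secretory cells (FDR = 0.00023), in the authors' deposited table. It also lay 1.42-fold lower in maturation over cervical loop cells (FDR = 0.00111) in the authors' deposited table.

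Early endosome genes were few, and their calls were read against all genes, of which 16.5%, 21.8% and 24.1% rose and 25.2%, 21.1% and 33.7% fell in the pairs in the order below. Of 6 measured genes, 4 rose and 0 fell in secretory over cervical loop cells, 3 rose and 1 fell in maturation over secretory cells, and 5 rose and 0 fell in maturation over cervical loop cells. Median log2 ratios were 0.38, 0.28 and 0.56 in that order. Rab5b and Rab5c are forms of Rab5, which governs fusion of early endosomes. Rab5b had authors' means of 80.5, 96.5 and 113 in the cervical loop, secretory and maturation stages, and it was 1.4-fold higher in maturation over cervical loop cells (FDR = 0.000885) in the authors' deposited table. Rab5c had 55.0, 78.2 and 85.9, and it was 1.42-fold higher in secretory over cervical loop cells (FDR = 0.01) in the authors' deposited table. Both forms thus lay above their cervical loop level in the later stages. Rab21, which moves integrins through early endosomes, had authors' means of 8.14, 13.9 and 23.4. It was 1.71-fold higher in secretory over cervical loop cells (FDR = 0.011) and 1.69-fold higher in maturation over secretory cells (FDR = 0.00726) in the authors' deposited table. Across both steps it reached 2.88-fold in maturation over cervical loop cells (FDR = 0.000404) in the authors' deposited table.

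Rab22a, of early and recycling endosomes, peaked in the secretory stage with authors' means of 20.6, 29.8 and 25.9. It was 1.45-fold higher in secretory over cervical loop cells (FDR = 0.000424) and 1.15-fold lower in maturation over secretory cells (FDR = 0.00261) in the authors' deposited table. Rab31, its relative, had 49.4, 46.7 and 59.0 and passed in no pair. Rab20, known from phagosomes, was nearly level in the first stages, with authors' means of 1.27, 1.34 and 2.68. In maturation over secretory cells it was 1.99-fold higher (FDR = 0.0174, from the authors' deposited table). In this pair 12 of 14 myeloid markers also rose, and the part of those cells in this value was not tested.

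Rabgef1 encodes Rabex-5, the exchange factor for Rab5, and it rose at both steps like Rab5b and Rab21. Its authors' means were 9.93, 18.7 and 22.2 in the cervical loop, secretory and maturation stages. It was 1.88-fold higher in secretory over cervical loop cells (FDR = 0.000385) and 1.19-fold higher in maturation over secretory cells (FDR = 0.00632) in the authors' deposited table. Rabep1, which encodes rabaptin-5, the partner of Rabex-5, had 27.8, 32.3 and 24.6 and did not follow it. It was 1.31-fold lower in maturation over secretory cells (FDR = 0.0258) in the authors' deposited table. Rabep2, a relative of Rabep1, had 10.3, 11.3 and 11.4 and passed in no pair. Rabepk, an effector of Rab9, had 4.74, 5.08 and 5.94 and passed in no pair.

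Of 9 recycling GTPases measured, 2 (22.2%) rose and 0 fell in secretory over cervical loop cells, beside 16.5% and 25.2% of all genes. The count was 4 (44.4%) that rose and 0 that fell in maturation over secretory cells, beside 21.8% and 21.1%, and in maturation over cervical loop cells 4 rose and 0 fell, beside 24.1% and 33.7%. Rab11a, the GTPase of the slow recycling endosome, had authors' means of 42.3, 32.3 and 57.9. It was 1.79-fold higher in maturation over secretory cells (FDR = 0.00307) in the authors' deposited table, and its lower secretory mean did not pass against the cervical loop (FDR = 0.0602). Rab11b had 43.5, 41.1 and 47.6 and passed in no pair. Rab25, an epithelial member of the same family, had 11.5, 19.6 and 18.7. It was 1.7-fold higher in secretory over cervical loop cells (FDR = 0.0015) and 1.62-fold higher in maturation over cervical loop cells (FDR = 0.00083) in the authors' deposited table. So Rab11a rose at the second step and Rab25 at the first. Rab10, of exocytic carriers and recycling to the surface, had authors' means of 61.4, 64.2 and 78.2, and it was 1.22-fold higher in maturation over secretory cells (FDR = 0.00857) in the authors' deposited table. Rab15 was 1.61-fold higher in the same pair (FDR = 0.0244) in the authors' deposited table, with means of 8.17, 7.91 and 12.8. Rab35, of fast recycling, was 1.24-fold higher there (FDR = 0.0459) in the authors' deposited table. Rab4a, of early recycling, was instead 1.37-fold higher in secretory over cervical loop cells (FDR = 0.0122) in the authors' deposited table. Rab4b had 9.45, 10.8 and 11.3, and Rab14, of endosome and Golgi traffic, had 60.5, 66.5 and 67.1. Neither passed in any pair.

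The Rab11 effectors, called FIPs, split by gene. Rab11fip1 had authors' means of 34.8, 21.5 and 19.8 in the cervical loop, secretory and maturation stages. It was 1.62-fold lower in secretory over cervical loop cells (FDR = 0.00111) in the authors' deposited table. Rab11fip2, a FIP that binds myosin Vb, peaked in the secretory stage with authors' means of 8.52, 17.7 and 9.07. It was 2.08-fold higher in secretory over cervical loop cells (FDR = 0.00185) and 1.95-fold lower in maturation over secretory cells (FDR = 0.00172) in the authors' deposited table. Rab11fip3, which also acts in cytokinesis, peaked likewise, with 18.1, 39.2 and 15.3. It was 2.17-fold higher in secretory over cervical loop cells (FDR = 0.00284) and 2.57-fold lower in maturation over secretory cells (FDR = 0.00111) in the authors' deposited table. Rab11fip4, its closest relative, fell at each step with authors' means of 9.62, 4.73 and 2.20. It was 4.38-fold lower in maturation over cervical loop cells (FDR = 0.00111) in the authors' deposited table. Rab11fip5 was highest in the maturation stage, with 11.5, 10.5 and 17.2, and it was 1.63-fold higher in maturation over secretory cells (FDR = 0.00276) in the authors' deposited table.

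Rab3gap1, the catalytic subunit of a complex that acts on Rab3 and also serves as an exchange factor for Rab18, had authors' means of 18.0, 17.4 and 27.3. It was 1.57-fold higher in maturation over secretory cells (FDR = 4.73e-05) in the authors' deposited table. Rab3gap2, the other subunit, had 32.3, 33.6 and 33.3 and passed in no pair. Rab3ip had 29.2, 30.9 and 46.7 and was 1.51-fold higher in maturation over secretory cells (FDR = 0.0197) in the authors' deposited table. Its transcript Rab3ip-201, with means of 45.9 and 30.3 in maturation and secretory cells, did not pass in that pair (FDR = 0.717). Over all 12 effectors and regulators, 3 rose and 2 fell in secretory over cervical loop cells, or 41.7% called beside 41.8% of all genes. Of the same 12, 4 rose and 4 fell in maturation over secretory cells, or 66.7% called beside 42.9%.

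Both Rab7 genes rose in secretory over cervical loop cells. Rab7a, which governs traffic from late endosomes to lysosomes, had authors' means of 78.4, 113 and 126 in the cervical loop, secretory and maturation stages. It was 1.44-fold higher in secretory over cervical loop cells (FDR = 0.000424) in the authors' deposited table. The second step added 1.12-fold in maturation over secretory cells (FDR = 0.00773) in the authors' deposited table, and the change in maturation over cervical loop cells was 1.61-fold (FDR = 6.69e-05). Rab7b, which acts in traffic from endosomes to the Golgi, had 5.00, 14.5 and 11.3 and was 2.89-fold higher in secretory over cervical loop cells (FDR = 0.00368) in the authors' deposited table. Rab12 was 1.48-fold higher in the same pair (FDR = 0.0269) in the authors' deposited table. Rab33b, of the Golgi and autophagy, peaked in the secretory stage with 12.2, 17.8 and 12.8. Rab29, a partner of the kinase Lrrk2, was lowest there, with authors' means of 9.18, 6.55 and 10.7. It was 1.4-fold lower in secretory over cervical loop cells (FDR = 0.0253) and 1.63-fold higher in maturation over secretory cells (FDR = 0.00474) in the authors' deposited table. Rab9a, which returns sorting receptors to the Golgi, had 9.41, 7.51 and 6.57 and passed in no pair. Rab24 had 16.3, 15.6 and 13.5 and passed in no pair. Of the 7 measured genes of this role, 4 (57.1%) rose and 1 (14.3%) fell in secretory over cervical loop cells, beside 16.5% and 25.2% of all genes. In maturation over secretory cells 2 rose and 1 fell, beside 21.8% and 21.1% of all genes. The counts in maturation over cervical loop cells were 2 (28.6%) and 0, beside 24.1% and 33.7% of all genes.

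Of 11 GTPases of the endoplasmic reticulum and Golgi measured, 5 (45.5%) rose and 2 (18.2%) fell in secretory over cervical loop cells, beside 16.5% and 25.2% of all genes. In maturation over secretory cells 0 rose and 4 (36.4%) fell, beside 21.8% and 21.1%, and in maturation over cervical loop cells 5 rose and 2 fell, beside 24.1% and 33.7%. Median log2 ratios were 0.32, -0.33 and 0.18 in that order. Rab1a, of traffic from the endoplasmic reticulum to the Golgi, had authors' means of 88.1, 138 and 121. It was 1.57-fold higher in secretory over cervical loop cells (FDR = 0.0113) in the authors' deposited table. Rab6a, of traffic within and out of the Golgi, had 51.2, 94.3 and 78.5 and was 1.84-fold higher in the same pair (FDR = 0.00179) in the authors' deposited table. Its relative Rab6b, best known from neurons, went down across stages, with 3.11, 1.92 and 1.29. Rab6b was 1.62-fold lower in secretory over cervical loop cells (FDR = 0.0281) and 2.41-fold lower in maturation over cervical loop cells (FDR = 0.00122) in the authors' deposited table. Rab2a and Rab2b, which act between the Golgi and the endoplasmic reticulum, both peaked in the secretory stage. Rab2a had authors' means of 17.3, 25.6 and 20.4, and was 1.48-fold higher in secretory over cervical loop cells (FDR = 0.00257) in the authors' deposited table. Rab2b had 9.11, 13.4 and 8.28, and was 1.61-fold lower in maturation over secretory cells (FDR = 0.00276) in the authors' deposited table. Rab19 was at low means throughout, 0.26, 1.56 and 1.09, and was 6.0-fold higher in secretory over cervical loop cells (FDR = 0.00634) in the authors' deposited table. Rab33a, also at low means of 0.853, 0.319 and 0.144, was 5.93-fold lower in maturation over cervical loop cells (FDR = 0.00286) in the authors' deposited table. The other genes of this role passed in 1 pair or in none. Rab18, of lipid droplets and the endoplasmic reticulum, had 37.7, 46.0 and 46.4 and was 1.23-fold higher in maturation over cervical loop cells (FDR = 0.0392) in the authors' deposited table. Rab30, of the Golgi, had 3.17, 3.95 and 2.20 and was 1.8-fold lower in maturation over secretory cells (FDR = 0.0308) in the authors' deposited table. Rab39a had 0.788, 0.303 and 0.653 and was 2.6-fold lower in secretory over cervical loop cells (FDR = 0.0459) in the authors' deposited table. Rab43 had 2.63, 2.38 and 2.98 and passed in no pair.

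**Figure D3:**
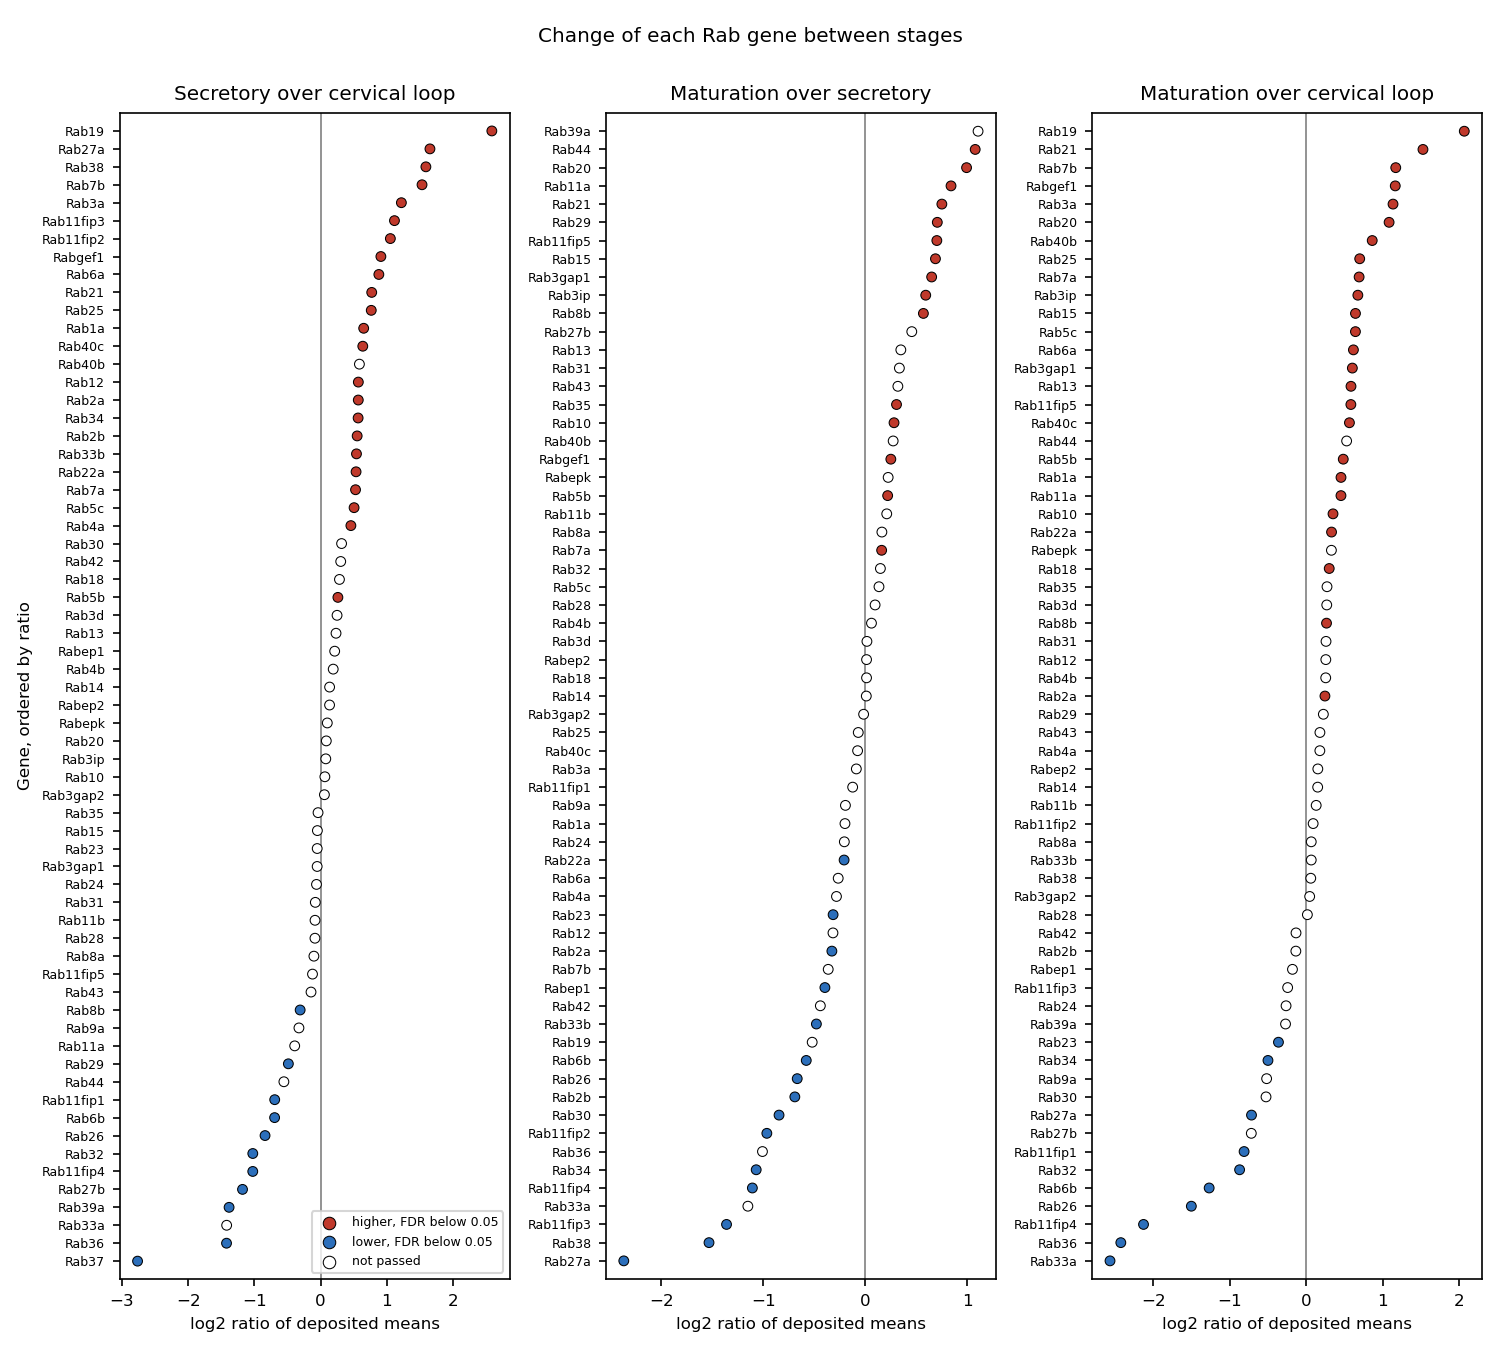
Log2 ratio of the authors' means for the members in each pair of stages, with the later stage over the earlier and filled points for FDR below 0.05. Rab37 has no ratio in either maturation pair because its maturation mean lies below 0.1.

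Among the GTPases of apical and ciliary delivery, Rab8b was lowest in the secretory stage and Rab8a did not change past the threshold. Rab8b had authors' means of 24.8, 20.0 and 29.8 in the cervical loop, secretory and maturation stages. It was 1.24-fold lower in secretory over cervical loop cells (FDR = 0.0114) and 1.49-fold higher in maturation over secretory cells (FDR = 0.000843) in the authors' deposited table. Rab8a had 34.7, 32.4 and 36.3 and passed in no pair. Rab23, which restrains Hedgehog signalling, was 1.24-fold lower in maturation over secretory cells (FDR = 0.023) in the authors' deposited table, with means of 21.1, 20.4 and 16.4. Rab13, found at tight junctions, had 9.49, 11.2 and 14.2 and was 1.5-fold higher in maturation over cervical loop cells (FDR = 0.00992) in the authors' deposited table. Rab28 had 21.3, 20.1 and 21.5 and passed in no pair.

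Rab36, placed with the other GTPases, had authors' means of 1.47, 0.551 and 0.274, and was 5.38-fold lower in maturation over cervical loop cells (FDR = 0.00201) in the authors' deposited table. Rab40c, a Rab with a motif that recruits a ubiquitin ligase, had 12.9, 20.0 and 19.0 and was 1.56-fold higher in secretory over cervical loop cells (FDR = 0.00359) in the authors' deposited table. Rab40b had 0.897, 1.35 and 1.63 and was 1.82-fold higher in maturation over cervical loop cells (FDR = 0.00862) in the authors' deposited table. Rab44 had 0.258, 0.176 and 0.372 and was 2.12-fold higher in maturation over secretory cells (FDR = 0.0327) in the authors' deposited table. Rab42 had 0.311, 0.384 and 0.283 and passed in no pair. The largest mean of Rab33a, Rab39a, Rab42 and Rab44 was below 1, so their values rest on low levels.

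The genes that act with Rabs were read from a list of 111 measured genes outside the rule. In secretory over cervical loop cells 32 rose and 17 fell in the authors' deposited table, in maturation over secretory cells 21 rose and 25 fell, and in maturation over cervical loop cells 34 rose and 26 fell. The called share was 44.1%, 41.4% and 54.1% in these pairs, beside 41.8%, 42.9% and 57.8% of all genes. Their median log2 ratios were 0.03, -0.05 and 0.06. Of 35 effectors outside the rule, 11 (31.4%) rose and 9 (25.7%) fell in secretory over cervical loop cells, where 16.5% of all genes rose and 25.2% fell. Of 33 GTPase-activating proteins, 9 (27.3%) rose and 5 (15.2%) fell in that pair. In maturation over secretory cells, where 21.8% of all genes rose and 21.1% fell, 6 (18.2%) of them rose and 11 (33.3%) fell. Of 33 exchange factors, 8 (24.2%) rose and 3 (9.09%) fell in the first of these pairs, and 8 (24.2%) rose and 5 (15.2%) fell in the second.

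The effectors of Rab27 named here moved in different directions. The first 4 were named because they lay at an end of the called pathway genes, so their large changes follow from that choice. Sytl1, a synaptotagmin-like protein that binds Rab27, had authors' means of 6.03, 43.3 and 16.2 in the cervical loop, secretory and maturation stages. It was 7.17-fold higher in secretory over cervical loop cells (FDR = 0.000424) in the authors' deposited table. Sytl4, or granuphilin, had 6.96, 13.4 and 2.32 and was 5.77-fold lower in maturation over secretory cells (FDR = 0.000304) in the authors' deposited table. Both thus shared the secretory peak of Rab27a. Sytl5 had 0.868, 0.136 and 0.102 and was 6.38-fold lower in secretory over cervical loop cells (FDR = 0.0194) in the authors' deposited table. Its means in both later stages lay close to the 0.1 limit, so this fold rests on low levels. Myrip, a linker of Rab27 to myosin, had 10.2, 2.17 and 1.17 and was 4.72-fold lower in that pair (FDR = 0.00129) in the authors' deposited table. The next genes were chosen after their values were seen. Sytl2 had 5.68, 4.88 and 8.85 and was 1.81-fold higher in maturation over secretory cells (FDR = 0.0287) in the authors' deposited table. Madd, an exchange factor for Rab27 and Rab3, had 15.3, 20.8 and 15.6 and was 1.36-fold higher in secretory over cervical loop cells (FDR = 0.0434) in the authors' deposited table. Tbc1d10a, a GTPase-activating protein for Rab27, had 8.45, 13.6 and 17.0 and rose at both steps. Its relative Tbc1d10b had 25.5, 33.2 and 23.9 and was 1.39-fold lower in maturation over secretory cells (FDR = 0.00215) in the authors' deposited table. From the same list of effectors, Mlph, Sytl3 and Unc13d passed in no pair. Exph5 and Rph3al passed only in maturation over cervical loop cells. There they were 1.8-fold and 1.41-fold higher (FDR = 0.014 and 0.0255, from the authors' deposited table).

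**Figure D4:**
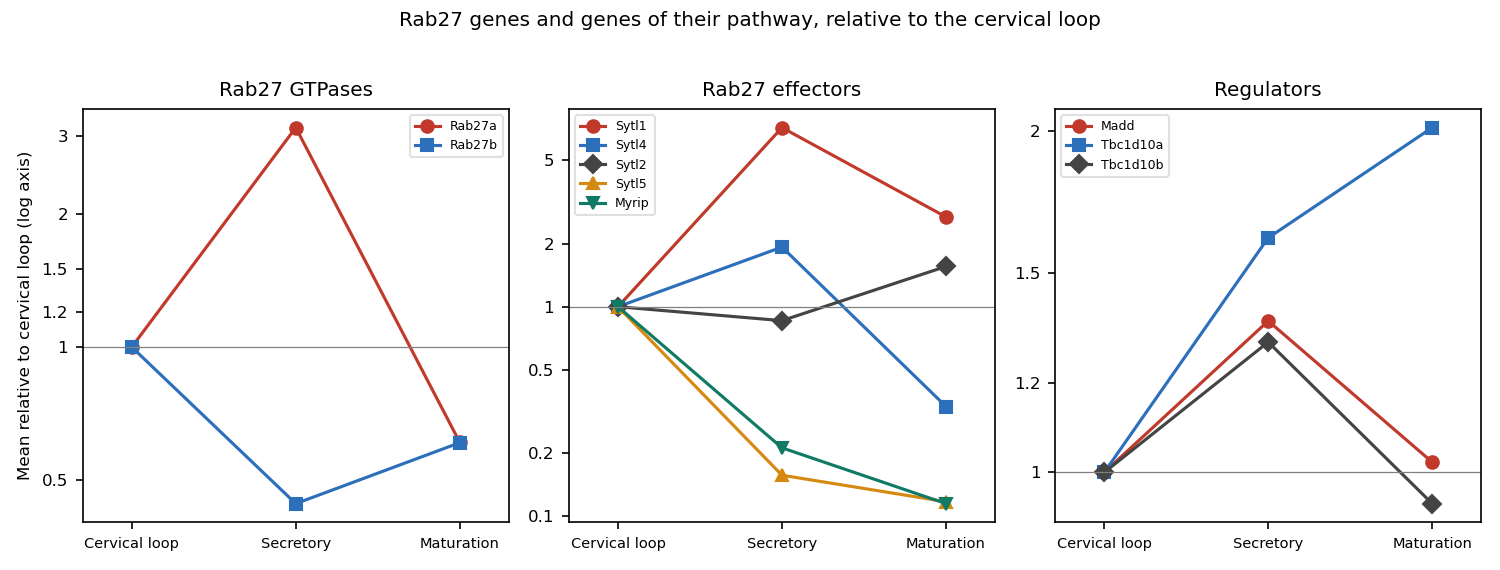
Authors' means of Rab27 genes and of chosen effectors and regulators in the 3 stages, each divided by the gene's own cervical loop mean and drawn on a log axis. Rab27a, Sytl1 and Sytl4 lie highest in the secretory stage, while Sytl5 and Myrip lie below 1 in both later stages. The later means of Sytl5 are close to 0.1.

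Other named genes of the list acted on different Rabs. Tbc1d9, a protein with a Rab GTPase-activating domain, had authors' means of 6.36, 59.8 and 10.5 and was 9.41-fold higher in secretory over cervical loop cells (FDR = 0.00045) in the authors' deposited table. Ppm1h, a phosphatase for Rab8 and Rab10, had 12.4, 64.7 and 14.5 and was 5.23-fold higher in that pair (FDR = 0.000645) in the authors' deposited table. Micall1, an effector of Rab8 and Rab35 on recycling tubules, had 73.2, 212 and 167 and was 2.9-fold higher there (FDR = 0.00114) in the authors' deposited table. Tbc1d9 and Ppm1h were also lower in maturation over secretory cells (FDR = 0.000404 and 0.000571 in the authors' deposited table), whereas Micall1 did not pass in that pair (FDR = 0.122). Rin1, an exchange factor for Rab5, had 3.32, 2.03 and 16.3 and was 8.03-fold higher in maturation over secretory cells (FDR = 0.000442) in the authors' deposited table. Myo5b, the motor that carries Rab11 membranes, had 1.48, 1.64 and 6.48 and was 3.95-fold higher in the same pair (FDR = 0.00336) in the authors' deposited table. Rab3il1, an exchange factor related to Rab3ip, had 4.11, 2.52 and 10.1 and was 4.02-fold higher there (FDR = 0.000728) in the authors' deposited table. Rims1, a Rab3 effector of synapses, had 3.92, 3.78 and 0.372 and was 10.1-fold lower there (FDR = 0.000889) in the authors' deposited table. In this pair 12 of 14 myeloid markers also rose, and the part of other cells in these values was not tested. Tbc1d2, a GTPase-activating protein for Rab7, had 3.73, 12.3 and 14.7 and was 3.3-fold higher in secretory over cervical loop cells (FDR = 0.00206) in the authors' deposited table. Bicd1, a dynein adaptor bound by Rab6, had 5.80, 2.83 and 8.34 and was 2.05-fold lower in that pair (FDR = 0.0167) in the authors' deposited table. Tbc1d24, a protein with a Rab GTPase-activating domain, had 8.36, 4.46 and 5.01 and was 1.87-fold lower there (FDR = 0.0176) in the authors' deposited table. Several proteins with such domains differed in maturation over secretory cells. Sgsm1 had means of 0.211, 0.107 and 1.71, the secretory mean close to the 0.1 limit, and was 16.0-fold higher (FDR = 0.000287, from the authors' deposited table). Tbc1d30 had 4.24, 3.10 and 19.9 and was 6.42-fold higher (FDR = 0.0042, from the authors' deposited table). Sgsm2 had 34.3, 65.9 and 20.1 and was 3.27-fold lower (FDR = 0.000409, from the authors' deposited table).

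Transcript tables for 17 members covered 38 transcripts, and each pair of stages was fitted on its own by the authors, so means of 1 transcript can differ between tables. At gene level, a change in isoform make-up passed for 0 of 17 members in secretory over cervical loop cells, beside 1.19% of 4050 genes, for 0 in maturation over secretory cells, beside 1.8% of 4051 genes, and for 0 in maturation over cervical loop cells, beside 2.79% of 4050 genes, with the authors' deposited p-values. At an unadjusted p below 0.05 the counts were 1, 1 and 3 members, beside 11.4%, 11.4% and 14.4% of all genes in these tables. The nearest was Rab24, of autophagy, in maturation over cervical loop cells (FDR = 0.0701). The FDR values of this paragraph were adjusted here from the authors' p-values. Its transcript Rab24-201 had authors' means of 3.35 in maturation and 6.75 in cervical loop cells and was 2.01-fold lower (FDR = 0.00254), and Rab24-203 had 7.50 in maturation and 6.40 in cervical loop cells and did not pass. Rab22a-201 had authors' means of 13.0 in maturation and 8.94 in cervical loop cells, and Rab22a-202 had 13.1 in maturation and 11.4 in cervical loop cells. Rab7a-201 had 127 in maturation and 73.2 in cervical loop cells and did not pass (FDR = 0.578), while the gene-level comparison of Rab7a did. Gene and transcript also differed in this way for Rab7a-201 in secretory over cervical loop cells (FDR = 0.288). So did Rab3ip-201 (FDR = 0.717) and both Rab23 transcripts (FDR = 0.303 and 0.829) in maturation over secretory cells. Rab1a-203 and Rab1a-201 did not pass in secretory over cervical loop cells (FDR = 0.0867 and 0.294), where the gene did. Of the 38 transcripts, 4, 6 and 10 passed in the pairs in the order above. The share of all transcripts that passed is not given, so these counts cannot be read against a background.

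**Figure D5:**
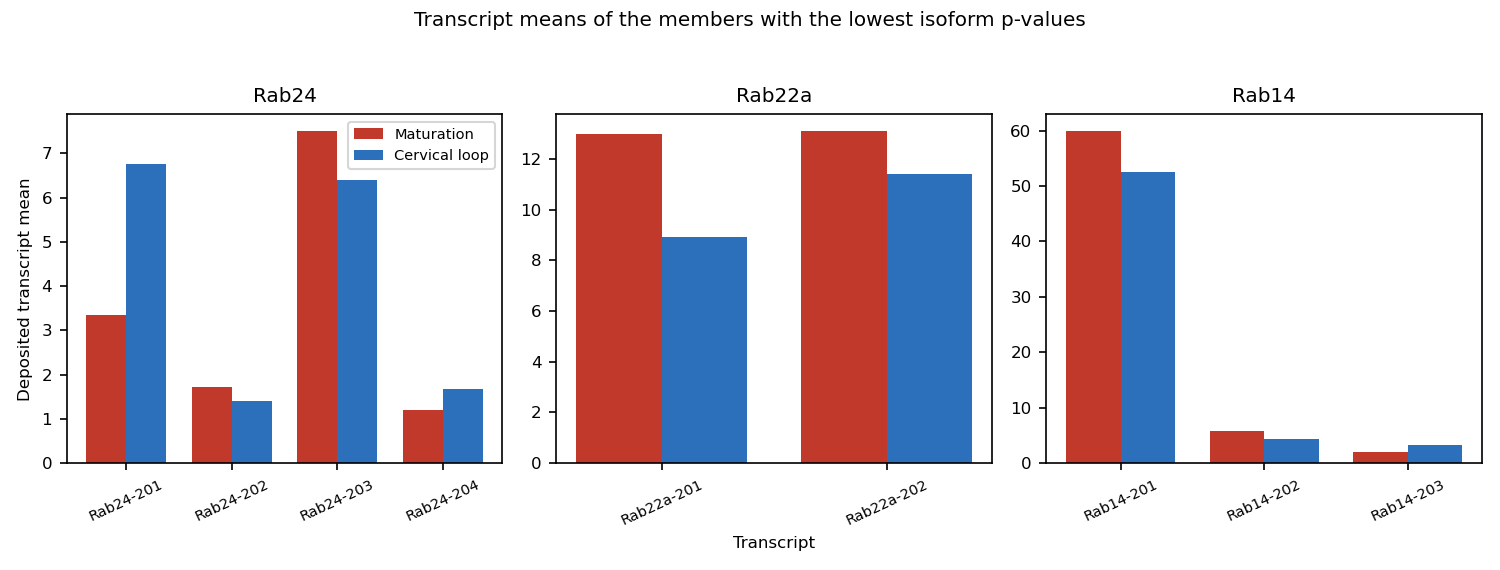
Authors' means of transcripts of members in the maturation stage, drawn left, and in the cervical loop, drawn right, for Rab24, Rab22a and Rab14, with bars on linear axes that start at 0. Rab24-201 reaches 3.35 in maturation and 6.75 in cervical loop cells.

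Genes with near-identical copies may have shared reads. RefSeq (GRCr8) names 6 pseudogenes of Rab1a and 1 each of Rab11a, Rab12, Rab18, Rab5c and Rab7a, so the means of these genes are uncertain where the authors' counting could split reads.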

How the data were processed

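RNA was sequenced from maturation ameloblasts, secretory ameloblasts and cervical loop cells of 5 rats. Per the labels' protocols, reads were single-end with 75 bases, RNA integrity numbers were at least 7, and 1 cervical loop library was excluded. Per the submitters' processing notes the tools included STAR 2.5.3a and Partek, with build rn6. The authors deposited 1 least-squares mean per gene and stage, of unstated unit, beside p-values and ratios (fold changes) for each pair of stages, and similar isoform tables. The sources used here give no depth per stage, which leaves the counting error unknown.

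Benjamini-Hochberg adjustment was applied to the deposited p-values over 16516 genes, and a gene was called at FDR below 0.05. The direction was the sign of the difference of means, and no fold was given where a mean was at or below 0.1. The adjustment was tested on simulated data. Members, gene lists, tests and the rule for named genes were chosen with earlier results of these data known. By that rule the members named first were, in each pair, the 12 with the largest and the 12 with the smallest ratios among those called, plus close relatives and every effector. From the other Rab pathway genes it took the 5 at each end among those called in the 2 steps. Other members are given so that all 64 are accounted for, and were chosen after their values were seen. Python 3.11.15, pandas 2.3.3, scipy 1.17.1, statsmodels 0.14.6 and matplotlib 3.10.9 were used. Alternatives were a stricter FDR, a minimum fold, unadjusted p, the Benjamini-Yekutieli adjustment, a low-mean filter, a pseudocount and other scalings.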

Additional observations from a re-analysis of the deposited data

How the results depend on the processing

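No paired analysis was possible because each stage is held as 1 mean and no replicate numbers are shared. Leaving out a library could not be run for the same reason. A pseudocount of 1 cannot change the sign of a difference, so it does not test direction. Equal 75th percentiles or sums shift every gene of a pair by 1 constant, which can change the sign only of ratios smaller than the shift. Equal sums without the genes of largest mean moved all log2 ratios by -0.12 in both pairs against the cervical loop. Before that shift the members' median log2 ratios were 0.14 in secretory and 0.23 in maturation over cervical loop cells. Those of all genes were -0.14 and -0.12. Thresholds moved the counts of called members. Shares of all genes at these other thresholds are not given, so the counts and patterns below cannot be read against a background. In secretory over cervical loop cells they were 18 (15 higher, 3 lower) at FDR below 0.01, 22 with a fold of at least 1.5 (13 higher), and 15 (13 higher, 2 lower) by Benjamini-Yekutieli. In maturation over secretory cells they were 17 (9 higher, 8 lower), 18 (9 higher, 9 lower) and 12 (5 higher, 7 lower) in the same order. In maturation over cervical loop cells they were 23 with the fold (14 higher) and 20 by Benjamini-Yekutieli (12 higher). Among patterns, FDR below 0.01 left 3 members high and 8 low in the cervical loop, 0 low in the secretory stage, and 7 high and 2 low in maturation. A fold of at least 1.5 left 7 low in the cervical loop, beside 14 without it. The number high there stayed within 1.5 times of the 7 reported. This fold left 4 high and 0 low in the secretory stage, and 5 high and 3 low in maturation. In both pairs against the cervical loop it took out more rises than falls. Unadjusted p below 0.05 gave 4 low in the secretory stage, and 1, 1 and 3 members with a change in isoform make-up in secretory over cervical loop, maturation over secretory and maturation over cervical loop cells. Every other setting run, among them the low-mean filter, centring on the median of all genes and GTPases alone, kept these counts within 1.5 times of those reported. Unknown depth limits how firmly low means can be read.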

Other observations

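Genes named Rab-like lie outside the rule and encode more distant relatives of the Rabs. Rabl2, linked to cilia, had authors' means of 6.75, 5.11 and 3.46 in the cervical loop, secretory and maturation stages. It was 1.95-fold lower in maturation over cervical loop cells (FDR = 0.00047) in the authors' deposited table, and it fell at both steps. Rabl6 had 31.8, 29.3 and 23.8 and was 1.33-fold lower in maturation over cervical loop cells (FDR = 0.0103) in the authors' deposited table. Rabl3 had 6.99, 8.35 and 7.52 and passed in no pair.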
